A study of Tribolium castaneum with 16 samples.

Results

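In the red flour beetle Tribolium castaneum, 401 genomic regions were called open in early whole embryos and in no list from the oldest embryos or from larvae. They are regions with a FAIRE-seq peak in both lists from embryos aged 0 to 24 h and in at least 1 list from embryos aged 24 to 48 h, with no peak in either list at 48 to 72 h and none in the 8 larval lists. They were found by merging the peaks of all 14 deposited lists wherever they overlapped by 1 bp or more, and by keeping regions on the 10 linkage groups (ChLG1 to ChLG10). The 401 regions were 0.883% of the 45389 linkage-group regions. The calls of all 14 lists chose them, so their presence at 0 to 48 h and absence afterwards is a description and not a result.

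FAIRE-seq fixes chromatin, shears it and recovers by phenol-chloroform extraction the DNA that is poor in nucleosomes, so a peak marks DNA that was accessible in part of the cells. Such regions include promoters and enhancers, the stretches that transcription factors bind to control genes. Tribolium is a short-germ insect: the blastoderm forms the head and anterior segments, and further segments are added from a posterior growth zone as the germ band elongates. Many enhancers that pattern the axes act for a short part of embryogenesis, and their accessibility can be equally brief.

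The embryos were of the Georgia I strain, collected over 24 h and aged at 30 °C, so each sample mixed ages across a whole day, and 2 samples were taken per stage. Larvae were last-instar animals of the enhancer-trap strain pu11, with 2 samples of brain (titled CNS), 3 of lateral epidermis with the elytron disc from the second thoracic segment (T2) and 3 with the hindwing disc from the third (T3). Fixation lasted 20 minutes for CNS and 30 minutes for all other samples, and strain, dissection and barcode length also differed between embryo and larva. For calls present in embryos and absent in larvae, stage, strain and preparation cannot be told apart. Nothing in the labels says whether same-stage samples came from separate collections, so the spread between them may be technical. In whole embryos and dissected tissue, fewer cells with an open region and less opening per cell cannot be told apart.

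The lists differed in length and depth. At 0 to 24 h they held 31485 and 33884 peaks (replicates 1 and 2), at 24 to 48 h 18034 and 21309, at 48 to 72 h 17288 and 10769, and in larvae from 9725 to 36080. The genome-wide background depth, in extended reads expected over a base, was recovered from each list. It was 3.71 and 4.72 at 0 to 24 h, 1.89 and 2.08 at 24 to 48 h, 1.92 and 2.53 at 48 to 72 h, and from 1.96 to 9.85 in larvae. Replicate 1 at 48 to 72 h was therefore about as deep and as long as replicate 1 at 24 to 48 h. Replicate 2 at 48 to 72 h had the shortest embryo list in spite of a greater depth than both lists at 24 to 48 h.

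Most regions that were called early and not at 48 to 72 h had a larval peak, as most early regions did. Of the linkage-group regions, 16906 were called in both lists at 0 to 24 h and in at least 1 at 24 to 48 h. Of these, 11701 (69.2%) were called in at least 1 list at 48 to 72 h and 5205 (30.8%) in neither. Of the 5205, 4673 (89.8%) were called in at least 1 CNS list, 4030 (77.4%) in both, and 2553 (49.0%) in at least 1 epidermis list. A further 131 (2.52%) had an epidermis call with no CNS call, and the remaining 401 (7.70%) are the regions described here. CNS had the deepest lists, and replicates 1 and 2 of CNS called 80.8% and 86.4% of the 5205. They called 90.6% and 93.8% of all 16906, and 11118 and 11353 of the 11701 with a call at 48 to 72 h. A CNS call was thus less frequent among the regions with no call at 48 to 72 h than among the early regions they came from. Only the 14 lists at hand are covered: tissues other than brain and thoracic epidermis were not sampled in larvae.

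At 0 to 24 h the 401 regions were ordinary peaks, with a wide range of strengths. The authors' fold enrichment (pileup at the summit over the local background, a ratio) ranged in replicate 1 from 2.90 to 21.5 with a median of 5.72, and in replicate 2 from 2.44 to 23.3 with a median of 5.60. Within each list the median member stood near the middle, at percentile 49.2 of the folds in the replicate 1 list and at percentile 50.4 in replicate 2. The median summit held 28 reads in replicate 1 and 36 in replicate 2. Folds of the 2 replicates were related across the 401 regions (Pearson's r of log2 folds 0.847, Spearman's rho 0.806). This is across regions that share libraries and depth, so it is given as a description.

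At 24 to 48 h the same regions were weak peaks, and most were called in a single list. Only 95 of the 401 (23.7%) were called in both lists, against 11791 of the 16906 regions with the same early calls (69.7%). Another 248 (61.8%) were called in replicate 2 alone and 58 (14.5%) in replicate 1 alone. The median fold was 4.73 over the 153 regions called in replicate 1 and 4.55 over the 343 called in replicate 2, at percentiles 39.4 and 32.6 of those lists. The median summit held 14 reads in each list. Peaks were also narrow: 62.7% of those in replicate 1 and 60.3% of those in replicate 2 were under 150 bp wide, against 23.2% and 21.6% of all peaks of these lists. The narrowest peak in each of these lists was 125 bp wide, and 40 of the 153 and 67 of the 343 peaks had exactly that width. These peaks sat at the lower limit of listed width, which is not a statement about their folds. The share at exactly that width was not computed over all peaks of the lists.

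**Figure D1:**
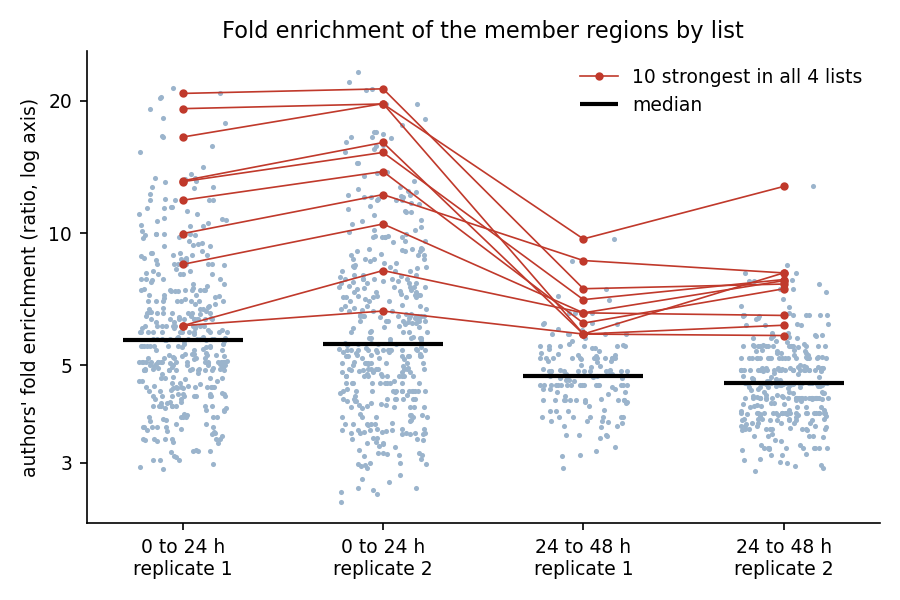
Authors' fold enrichment (log axis) of the 401 regions in the 4 lists that call them. Each point is a region, black bars are medians, and red lines join the 10 regions with the largest smallest fold over all 4 lists. Medians were 5.72, 5.60, 4.73 and 4.55 from left to right, and folds above 10 were nearly all at 0 to 24 h.

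The fold was usually smaller at 24 to 48 h than at 0 to 24 h, but not more so than in other open regions. The mean fold was lower at 24 to 48 h in 325 of 401 regions (81.0%), with a median ratio of 0.766. Over all linkage-group regions with folds at both stages the median ratio was 0.757. The fold adds 1 read to pileup and background, which lowers it more in a shallow list. Read as pileup per unit of background depth, the ratio had a median of 0.883 and was below 1 in 260 regions (64.8%). In the 95 regions called in all 4 lists, both folds at 24 to 48 h lay below both at 0 to 24 h in 68, and above both in 3. Their median ratio was 0.675, and their mean folds had medians of 7.25 at 0 to 24 h and 4.77 at 24 to 48 h. The regions called in 1 list at 24 to 48 h were weaker at the start, with a median mean fold of 5.35 at 0 to 24 h.

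**Figure D2:**
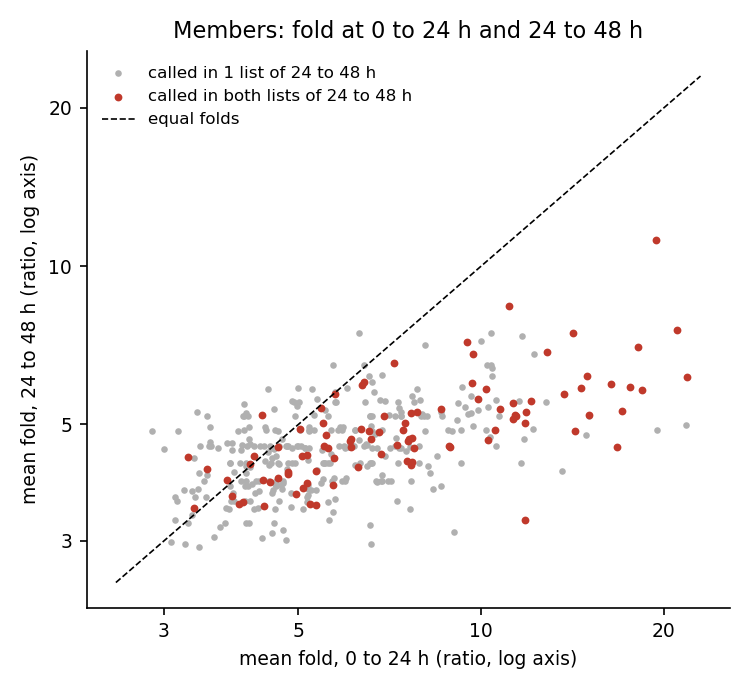
Mean fold at 0 to 24 h against mean fold at 24 to 48 h for the 401 regions (both log axes), split into the 95 called in both later lists and the 306 called in 1. Most points (325) lie below the dashed line of equal folds.

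Summits of the 2 stages lay close together within the merged regions. Summits of the 2 replicates at 0 to 24 h differed by a median of 14 bp, and those at 24 to 48 h by 15 bp in the 95 regions called in both lists. The mean summit of one stage lay a median of 13 bp from that of the other, and within 50 bp in 348 of 401 regions (86.8%). The offset between stages is taken between means and that between replicates between single summits, so their sizes are not compared. Summits of a region also had to lie in the same merged region, which by itself keeps offsets small. Merged regions had a median width of 215 bp (from 147 to 649 bp), and 17 held more than 1 peak of a single list.

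Ranked by the smallest fold over the 4 lists, the first region spanned 267 bp on ChLG3 from 25896406 to 25896672. Its folds were 19.2 and 19.7 at 0 to 24 h, with 109 and 137 reads at the summit, and 9.70 and 12.8 at 24 to 48 h, with 32 and 43 reads. At 24 to 48 h it was the strongest of the 401 in both lists, yet the nearest region called at 48 to 72 h lay 9876 bp away. Coordinates here and below are those of the deposited lists, counted from 1. The genome build is not given in the sources used here, so neither the sequence nor the neighbouring genes of these regions were analysed.

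The region on ChLG2 from 17114412 to 17114799 had the most reads at 0 to 24 h. It had folds of 20.8 and 21.3 there, from 138 and 173 reads, and of 7.47 and 7.66 at 24 to 48 h, from 27 and 32 reads. Its mean fold at 24 to 48 h was 0.359 times that at 0 to 24 h. A separate region, called in larvae, began 72 bp away, so an open neighbour and this region were called apart.

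The region on ChLG8 from 10842390 to 10842638 had closer values at the 2 stages, with folds of 9.98 and 12.2 at 0 to 24 h and of 8.66 and 8.12 at 24 to 48 h. The region on ChLG10 from 2285681 to 2285946 was the farthest of the 10 ranked highest from later open chromatin, 25750 bp from the nearest region called at 48 to 72 h and 6781 bp from the nearest larval one. Its folds were 16.6 and 19.7 at 0 to 24 h and 5.89 and 8.12 at 24 to 48 h. In each of these regions both early folds lay above both later ones.

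The remaining 6 of the 10 regions ranked highest this way were on ChLG9 (8395109 to 8395321 and 21028825 to 21029144), ChLG8 (7057464 to 7057801, 12033064 to 12033296 and 12076662 to 12076906) and ChLG6 (12563223 to 12563442). Their folds ran from 6.15 to 16.1 at 0 to 24 h and from 5.84 to 7.84 at 24 to 48 h. The last 2 regions on ChLG8 lay within 50 kb of each other. The ChLG6 region and that at 12033064 on ChLG8 were nearly level, with ratios of 0.910 and 0.942.

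The mean fold was larger at 24 to 48 h in 76 of the 401 regions, and the 5 with the largest ratio among those called in all 4 lists are given here. The first, with a ratio of 1.32, was on ChLG2 from 10388613 to 10388833, with folds of 3.53 and 3.06 at 0 to 24 h and of 4.18 and 4.50 at 24 to 48 h. It lay 231 bp from a region called in all 14 lists. The second was on ChLG5 (10601325 to 10601510), with folds of 4.43 and 4.28 and then of 5.02 and 5.40. The next ratios were 1.17 on ChLG9 (19565770 to 19565982), 1.03 on ChLG10 (7324919 to 7325303) and 1.03 on ChLG3 (14646780 to 14646994). All 5 started from weak early peaks, with mean folds of at most 4.36.

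The widest regions were on ChLG7 (14311336 to 14311984, 649 bp), ChLG10 (9417944 to 9418588, 645 bp) and ChLG3 (10550717 to 10551337, 621 bp). The first had folds of 3.18 and 2.54 at 0 to 24 h and 4.85 in replicate 1 at 24 to 48 h. Its summits at the 2 stages were 81 bp apart, and its ratio of 1.69 was the highest of all 401, from a single later list.

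The line between members and other regions was fine at its edge. The members with the least significant best peak at 24 to 48 h lay on ChLG8 (8520546 to 8520954), ChLG2 (16173268 to 16173516) and ChLG3 (14042696 to 14042985), with −log10 q of 1.91, 2.24 and 2.27 and with 8, 9 and 9 reads at the summit. The regions just outside, which met every condition but for a weak peak in replicate 1 at 48 to 72 h, lay on ChLG1 (6091101 to 6091530), ChLG3 (23426021 to 23426226) and ChLG5 (3507242 to 3507492). Each had 9 reads at that summit, a fold of 3.42 and a −log10 q of 2.71. Regions just inside and just outside thus rested on summits of 8 or 9 reads. Members have no value at 48 to 72 h, so those inside were ranked by their best peak at 24 to 48 h.

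The weakest peaks of the lists show how low a fold could be called at each stage. At genome-wide background the lowest fold called was 2.77 and 2.92 at 24 to 48 h (replicates 1 and 2) and 2.74 and 2.83 at 48 to 72 h. The 5th percentiles of such peaks were 3.81 and 3.57 at 24 to 48 h and 3.76 and 3.40 at 48 to 72 h. The limits of the 2 stages were close, so a region called at 24 to 48 h had by that call a fold near or above the later limit, and nothing is read from the members' folds against it. Their part in the missing calls at 48 to 72 h was not tested.

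The replicate that did not choose a region is the one call of the same kind that the rule had not fixed. Regions were chosen again on the replicate 1 lists alone (called at 0 to 24 h and 24 to 48 h, not at 48 to 72 h, and in no larval list) and read in replicate 2. Of 166 so chosen, 100 (60.2%, 95% Wilson interval 52.6 to 67.4%) were called in the other list at 24 to 48 h and 5 (3.01%, 1.29 to 6.86%) in the other list at 48 to 72 h. Of all 13001 regions called in the choosing lists at 0 to 24 h and 24 to 48 h, the shares were 91.6% and 53.2%. These include regions with a larval call, which the chosen regions lack by rule. Without a larval call, 529 regions were called in both lists at 0 to 24 h and at least 1 at 24 to 48 h. Replicate 2 at 48 to 72 h called 6.05% of these 529. The list read at 48 to 72 h was the short one. Intervals here cover counting error only, and regions of one list are not independent.

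With the roles exchanged, the lists read were the replicate 1 lists of 24 to 48 h and 48 to 72 h, which were alike in depth (1.89 and 1.92) and length (18034 and 17288 peaks). Of 456 regions chosen on replicate 2, 140 (30.7%, 26.6 to 35.1%) were called at 24 to 48 h and 85 (18.6%, 15.3 to 22.5%) at 48 to 72 h. Of all 16090 regions called in the choosing lists at 0 to 24 h and 24 to 48 h, larval calls or not, the shares were 73.6% and 68.6%. Of the 529 early regions with no larval call, replicate 1 at 48 to 72 h called 23.3%. The larger shares over all regions are thus not like for like with the chosen ones. The held-out calls were more frequent at 24 to 48 h in both directions, as they were over all regions called in the choosing lists. The regions were chosen for that order in the other replicate. In the first direction the lists read also differed in length, with 21309 and 10769 peaks. The order is therefore given as a description. Between the lists of similar depth, however, most of the chosen regions were missed at 24 to 48 h as well.

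The regions were also set in the pool they came from, the 2059 regions called in both lists at 0 to 24 h and in no larval list, with no condition on the other embryo lists. Of these, 1480 (71.9%) had no call after 24 h, 401 (19.5%) had a call at 24 to 48 h only, 128 (6.22%) at both later stages, and 50 (2.43%) at 48 to 72 h only. Between the replicate 1 lists of these stages, 157 regions were called at 24 to 48 h and not at 48 to 72 h, 90 the other way round, and 83 in both. Both lists of 24 to 48 h and neither of 48 to 72 h called 95 regions, and the opposite pattern was found in 0 of 2059, which allows a share of up to 0.186% (upper bound of the 95% Wilson interval). The first and last of these counts repeat the rule, and only 27 pool regions had both lists of 48 to 72 h, so they are given as a description. The same was counted over all 24519 regions called in both lists at 0 to 24 h, larval calls or not. Of these, 5205 (21.2%) were called at 24 to 48 h and not at 48 to 72 h, and 855 (3.49%) the other way round. These shares belong beside the 19.5% and 2.43% of the pool, and the 19.5% of members was near the 21.2%. Between the replicate 1 lists the counts were 2972 (12.1%) and 2254 (9.19%), beside 157 (7.63%) and 90 (4.37%) in the pool.

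Stronger early regions of the pool were called later more often, and the gap between the later stages was widest among them. In the pool, 11.5% of the 566 regions with a mean fold under 4 at 0 to 24 h were called in at least 1 list at 24 to 48 h (9.11 to 14.4%), and 4.95% in at least 1 at 48 to 72 h (3.44 to 7.06%). Of the 93 regions with a mean fold of 10 or more, 77.4% were called at 24 to 48 h (67.9 to 84.7%) and 21.5% at 48 to 72 h (14.4 to 30.9%). In the replicate 1 lists of the same stages these 93 regions were called in 52.7% and 21.5%, while the 566 weakest were called in 3.71% and 4.59%, so the weakest class showed no excess at 24 to 48 h there. Members made up 8.83% of the weakest class and 55.9% of the strongest. These later calls also define the members, so the member shares restate the gap between the stages. The 24519 regions called in both lists at 0 to 24 h, larval calls or not, give a wider frame. Replicate 1 called 52.4% of them at 24 to 48 h and 49.5% at 48 to 72 h, against 11.7% and 8.40% of the pool. Shares by fold were not computed outside the pool, so the gap is not shown to be particular to it. All of these shares are a description, and the intervals cover counting error only.

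**Figure D3:**
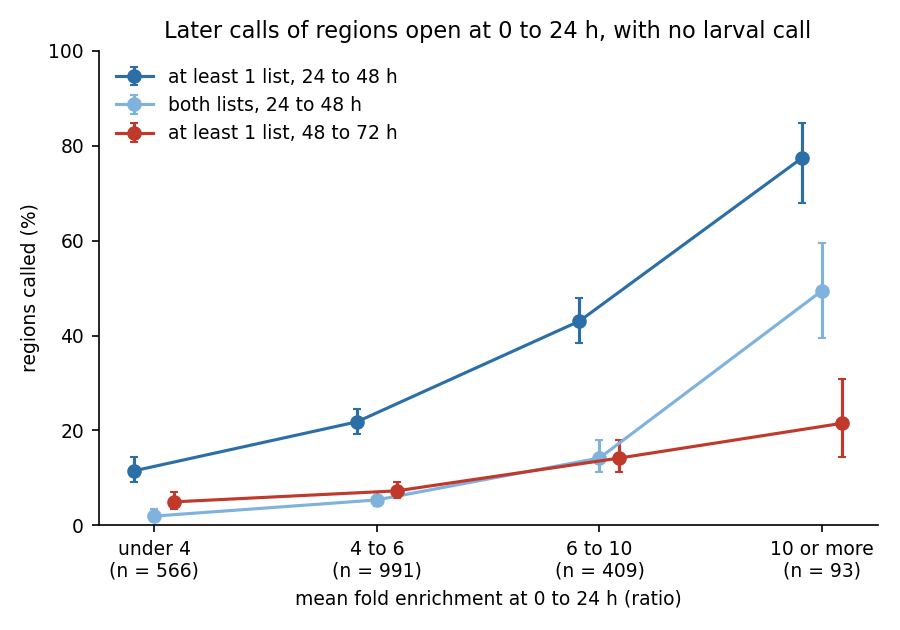
Share of the 2059 regions called in both lists at 0 to 24 h and in no larval list that were also called later, by mean fold at 0 to 24 h. Points are percentages and bars 95% Wilson intervals. At a fold of 10 or more, 77.4% were called in at least 1 list at 24 to 48 h, 49.5% in both, and 21.5% in at least 1 list at 48 to 72 h.

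Other classes of regions frame these values. The 1480 regions called in both lists at 0 to 24 h and nowhere else were weaker, with a median mean fold of 4.43 against 5.68, and narrower, with a median width of 181 bp against 215 bp. The 24 linkage-group regions called in all 6 embryo lists and no larval list had a median mean fold of 6.14 at 0 to 24 h, 7.64 at 24 to 48 h and 6.05 at 48 to 72 h, and a median width of 240.5 bp. All 24 were called in both lists at 24 to 48 h by rule. In the pool, 128 regions differed from members only by a call at 48 to 72 h. Their mean folds had medians of 6.28 at 0 to 24 h and 4.70 at 24 to 48 h, against 5.68 and 4.55 in members. Their median ratio of folds was 0.776 against 0.766, and their median width 236 bp. Both lists at 24 to 48 h called 57.0% of them, against 23.7% of members. The 4804 regions with no call at 48 to 72 h but a larval one had a median mean fold of 6.32 at 0 to 24 h and a median width of 328.5 bp, and 1944 of them (40.5%) were called in both lists at 24 to 48 h. By early fold and width the 401 regions stood between regions called at 0 to 24 h only and the classes with later calls. The calls that define the classes also bear on fold and width, so these differences were not tested.

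The 401 regions lay on all 10 linkage groups in near proportion to other regions. Their share of the regions of a linkage group ran from 0.708% on ChLG3 (0.531 to 0.943%) to 1.12% on ChLG6 (0.793 to 1.57%), and the 95% Wilson intervals of these extremes overlapped. The count per linkage group ran from 17 on ChLG10 to 52 on ChLG5. ChLG1, the X chromosome, held 24, or 5.99% of members against 5.98% of all regions.

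Members lay close to other open chromatin, like most regions. The nearest other region of any kind lay at a median of 457 bp, against 578 bp for all linkage-group regions, and within 1 kb for 294 members (73.3%), against 61.8% of all regions and 73.0% of those called at 0 to 24 h only. The nearest region called at 48 to 72 h lay at a median of 2593 bp, and within 100 bp for 20 members. The nearest region called in all 14 lists lay at a median of 15009 bp, against 13838 bp for the regions with a larval call and none at 48 to 72 h, and 16618.5 bp for those called at 0 to 24 h only. The nearest neighbour was called at 0 to 24 h in 74.3% and 80.5% of cases (replicates 1 and 2), against 57.3% and 62.9% of all linkage-group regions. At 24 to 48 h it was called in 30.4% and 37.4%, against 30.3% and 36.7%, and at 48 to 72 h in 29.4% and 13.5%, against 29.2% and 18.1%. It was called in CNS in 47.1% and 51.9%, against 69.4% and 63.9%. Epidermis calls ran from 9.48% in T2 replicate 1, against 16.0%, to 29.4% in T3 replicate 3, against 42.1%. Neighbours of members were thus called more often than regions in general at 0 to 24 h and about as often at 24 to 48 h. At 48 to 72 h they were called about as often in replicate 1 and less often in replicate 2, and less often in every larval list. Neighbours of other classes were not read, so these traits are not shown to be particular to members. The values describe positions and were not tested.

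Many members had another nearby, usually in small groups. Another member lay within 50 kb of 180 of the 401 (44.9%). The same share was not computed for other classes of regions, so grouping is not shown to be particular to members. Chained with gaps of at most 50 kb, 221 members stood singly, 53 chains held 2, 15 held 3 and 4 held 4. A single chain held 13, on ChLG4 from 3663671 to 3727468, a stretch of 63.8 kb. It was found by looking for the densest group, so its size is a description. The most members in any 50-kb window was 9, all of this chain, and the first such group ran from 3663671 to 3710550.

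The 13 members of the ChLG4 group had mean folds from 4.46 to 9.87 at 0 to 24 h and from 4.38 to 5.98 at 24 to 48 h, and 5 were called in both lists at 24 to 48 h. The strongest early one (3663671 to 3663891) had folds of 10.5 and 9.19 at 0 to 24 h and 5.32 in replicate 1 at 24 to 48 h. The strongest called in all 4 lists (3705557 to 3705824) had folds of 10.1 and 9.25, then 6.20 and 5.76. None of the 13 exceeded its mean early fold at 24 to 48 h, but the member from 3667479 to 3667699 was level, with a ratio of 0.993.

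The whole stretch was dense in early open chromatin. It held 71 merged regions, while windows of the same length begun at any region elsewhere on the linkage groups held a median of 24 and at most 62. Of the 71, the lists at 0 to 24 h called 59 and 68, those at 24 to 48 h 24 and 38, and those at 48 to 72 h 24 and 1. CNS called 12 in each list, T2 from 1 to 5 and T3 from 3 to 11. For comparison, the CNS lists called 69.4% and 63.9% of all linkage-group regions and 16.9% of these. The 2 lists at 48 to 72 h disagreed here more than elsewhere: replicate 2 called 1.41% of these regions against 18.1% of all, and replicate 1 called 33.8% against 29.2%. The local background of the 13 members ran from 1.26 to 2.06 times the genome-wide value, where the median over all members was 1.05. Early regions in general also had more local background than members. In a comparison of classes that gave members a median of 1.04, the 24519 regions called in both lists at 0 to 24 h had 1.25. Their upper quartile was 1.66. The 2 medians given for members differ, so the values of this comparison are not on the same measure as the range of the 13. The part of the local background of the group in the result was not tested. Without the group, 388 regions met the rule.

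**Figure D4:**
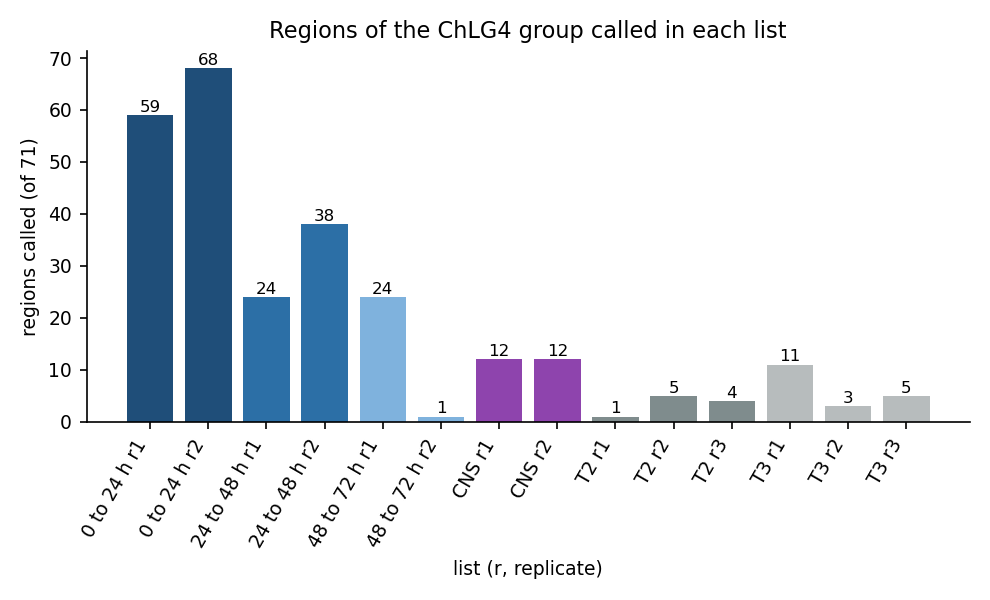
Number of the 71 merged regions of the ChLG4 stretch called in each of the 14 lists (bars start at 0, values above them). The lists at 0 to 24 h called 59 and 68, and the 8 larval lists from 1 to 12. At 48 to 72 h replicate 1 called 24 and replicate 2 called 1.

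The number of regions and the regions themselves depended on different settings. Where each list was cut to its best 50% by −log10 p, 563 regions met the rule, but only 43 of the 401 overlapped one of them. At equal list sizes the numbers were 505 and 29. In these settings 84.5% and 91.5% of the regions meeting the rule had a deposited CNS peak that the cut had removed. Likewise, 51.5% and 38.6% of them had a deposited peak at 48 to 72 h, so these were not without a call at that stage. A −log10 q of at least 2 gave 402 regions, which overlapped 400 of the 401. Rescaling all lists to one depth gave 807 regions, which overlapped 381 of the 401. Of the 807, 399 had a CNS peak in the deposited lists and 0 had a peak at 48 to 72 h. Leaving out CNS replicate 2 gave 746 regions and kept all 401, while requiring both lists at 24 to 48 h left 95.

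**Figure D5:**
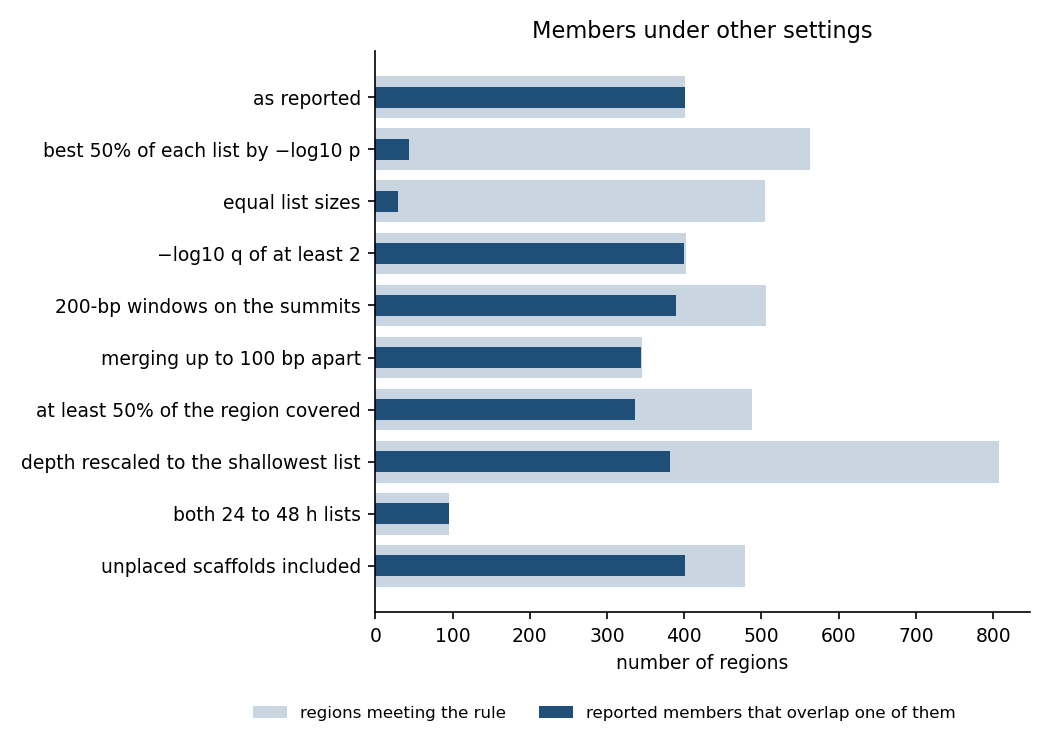
Number of regions that met the rule under each setting (light bars) and number of the 401 reported regions that overlap one of them (dark bars). The best 50% and equal list sizes gave 563 and 505 regions but held only 43 and 29 of the reported ones, while rescaled depth gave 807 and held 381.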

How the data were processed

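The 14 FAIRE-seq libraries each had a deposited list of narrow peaks called on that sample alone, as the peak names show. Genomic input samples were not analysed here. Per the submitters' processing notes, Trimmomatic 0.32, Bowtie2 2.2.3, SAMtools 0.1.12a, deepTools 2.5.2 and MACS2 2.1.1.20160309 were used. Genome build and control library are not given in the sources used here. The deposited fold enrichment is a ratio of pileup to local background, and the deposited −log10 p and −log10 q belong to a peak within its list, with a smallest −log10 q between 1.30 and 1.36 in each list (a q threshold of 0.05). The deposited score is 10 times −log10 q and was not used.

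Peaks overlapping by 1 bp or more were merged into 52384 regions, 45389 of them on linkage groups. A region's fold in a list is that of its strongest peak there. Pileup and background were solved from fold = (pileup + 1) / (background + 1) and the Poisson tail of p, which matched all 323093 peaks within 0.01 on the −log10 p scale. The smallest background of a list was taken as its depth. Total reads are unknown. Comparing depths assumes equal fragment extension in all lists. Scripts were tested on simulated lists with planted members. Calculations used Python 3.11.15, numpy 2.4.6, pandas 2.3.3 and scipy 1.17.1.

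The rule uses every list, so no test across samples was made: values are counts, medians and Wilson intervals (95%). The members, named regions and alternatives were chosen with earlier results of these data known. Named were the 10 regions with the largest smallest fold over the 4 early lists, the 5 with the largest ratio of folds, the 3 widest, those of the densest 50-kb window, and 3 on each side of the edge. The chain on ChLG4, the pool with its reversed counts and the comparison of window densities were added after the data had been seen. Planned values of GC content, motifs and nearby genes were not run, since no genome of the build was at hand.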

Additional observations from a re-analysis of the deposited data

How the results depend on the processing

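The number of regions meeting the rule, 401, stayed within 1.5 times that value in 20 of 24 alternatives. A similar number did not mean the same regions: the best 50% overlapped 43 of the 401 and equal list sizes 29. The number was 95 when both lists at 24 to 48 h were required and 807 with depth rescaled to the shallowest list. Leaving out 1 sample gave from 154 to 746: 154 without 24 to 48 h replicate 2 and 746 without CNS replicate 2. Without 48 to 72 h replicate 1 it was 497, and without replicate 2 of that stage 406. The share called in the held-out list was 60.2% at 24 to 48 h and 3.01% at 48 to 72 h with replicate 1 choosing, and 30.7% and 18.6% with replicate 2 choosing. The cause was not tested beyond the depth and length of the lists read. The share called in both lists at 24 to 48 h ran from 21.6% to 45.1%, the latter at equal list sizes, the median ratio of folds from 0.576 to 0.820, and the median width from 193 to 328 bp. The count of regions called at 48 to 72 h and not at 24 to 48 h, 50 as reported, was 84 at equal list sizes, 77 in the best 50% and 124 with depth rescaled, beside 505, 563 and 807 the other way round. At equal list sizes the replicate 1 lists gave 399 regions at 24 to 48 h only and 124 at 48 to 72 h only. Of the 505 and 563 regions, however, 38.6% and 51.5% had a deposited peak at 48 to 72 h that the cut had removed. Under these settings the same counts were not made over all early regions, so the difference is not shown to be particular to regions without a larval call. No paired analysis was possible because the values come from calls with no test across samples. With a median of 14 reads at a summit at 24 to 48 h, counting error limits single regions.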
